A study of Mus musculus with 17 samples.

Results

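Contacts made by the alpha-globin enhancer R2 and by HS2, which belongs to the control region of the beta-globin locus, were compared in mouse erythroid cells. The comparison used the 10 erythroid libraries of the 17 libraries in the series, summed into 3 biological replicates of 3 to 4 technical replicates each. The 7 ES cell libraries were not used. The same 10 libraries gave the contacts of both enhancers, so each replicate of R2 was paired with the same replicate of HS2. Of 1807006 contact pairs listed for R2 in the whole series, 1022923 were erythroid, and in 213905 of these both fragments lay between 1 kb and 2 Mb from the enhancer. For HS2, 947014 of 1433592 pairs were erythroid and 160842 had both fragments within that range.

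The cells were Ter-119+ cells taken from spleens of female C57BL/6 mice (strain label C57Bl6) and selected with magnetic beads. All the mice had received phenylhydrazine, which destroys red cells and makes the spleen produce erythroid cells, in 3 doses at 12 h intervals, each 40 mg/g in the unit the labels give, which could not be checked here, and were killed 5 days later. Ages are not given in the labels, nor is it stated if each biological replicate came from 1 animal or from a pool. Tests therefore refer to these 3 replicates, and part of the spread between them may be technical. Contacts were measured with Tri-C, in which cross-linked chromatin is cut with NlaIII, ligated and enriched for a chosen fragment, the viewpoint. Each read that holds the viewpoint and a pair of further fragments gives a 3-way contact on 1 allele. It measures contacts and not expression, so the cell type was not checked against marker transcripts.

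Enhancers are regulatory DNA elements that act on genes at a distance, and at many loci they are found close to their target promoters in the nucleus. R2 belongs to the upstream enhancer cluster of the alpha-globin genes, with R1, R3, Rm and R4. The cluster drives the expression of Hba-a1 and Hba-a2 in erythroid cells. HS2 is a hypersensitive site of the locus control region, which acts on the embryonic and the adult beta-like globin genes. At both loci the genes lie on 1 side of the enhancer, and CTCF, a protein that holds chromatin loops together, binds at the edges of the domain.

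The promoters below belong to the genes that lie within the stretch where both enhancers had their strongest distal contacts. They are the 250 bases before each gene's start in RefSeq's GRCm38.p6 assembly, on the minus strand for the beta genes and the plus strand for Hba-a1, and capitals mark the CCAAT box and the ATATAA element on either strand.
Hba-a1, chr11:32283422-32283671: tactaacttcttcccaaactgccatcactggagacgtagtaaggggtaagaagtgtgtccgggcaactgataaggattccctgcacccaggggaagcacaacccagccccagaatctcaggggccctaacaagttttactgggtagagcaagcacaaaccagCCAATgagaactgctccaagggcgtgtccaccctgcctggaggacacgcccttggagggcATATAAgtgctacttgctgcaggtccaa
Hbb-bs, chr7:103827929-103828178: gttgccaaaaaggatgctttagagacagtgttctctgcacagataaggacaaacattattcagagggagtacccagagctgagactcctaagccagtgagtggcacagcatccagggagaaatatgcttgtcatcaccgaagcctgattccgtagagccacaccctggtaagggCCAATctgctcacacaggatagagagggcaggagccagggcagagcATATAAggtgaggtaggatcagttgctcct
Hbb-bt, chr7:103813924-103814173: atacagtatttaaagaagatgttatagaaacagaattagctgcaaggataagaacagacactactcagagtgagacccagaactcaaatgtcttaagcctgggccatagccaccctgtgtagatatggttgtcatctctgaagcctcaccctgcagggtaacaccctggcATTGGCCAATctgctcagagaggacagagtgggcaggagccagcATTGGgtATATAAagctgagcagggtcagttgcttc
The promoter of Hba-a2 repeats that of Hba-a1, with 247 of 247 aligned bases identical, and those of Hbb-bs and Hbb-bt shared 127 of 249 aligned bases, and 73 of the 99 nearest the start. In the 32851 mouse promoters of the same length and table, 33.9% hold CCAAT and 9.10% hold ATATAA, and 54.0% hold CATG, the NlaIII site. None of the 4 adult globin promoters holds CATG in these 250 bases, so NlaIII does not cut within them. All positions from the contact data are in mm9, and these RefSeq positions were not converted to it.

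The R2 viewpoint, taken as the gap in the listed fragments, spanned chr11:32149923-32152111 (centre 32151017), and the HS2 viewpoint spanned chr7:111008334-111011358 (centre 111009846). Distances were measured from these centres to each fragment's midpoint, and counted as positive toward the globin genes, which lie at higher coordinates than R2 and at lower coordinates than HS2. The 1 to 2 kb band is partly covered by the viewpoints, to 1.095 kb at R2 and to 1.512 kb at HS2, so its values do not cover the same distances. Erythroid totals were 265527, 287895 and 469501 pairs for R2 in replicates 1, 2 and 3, and 222562, 260114 and 464338 for HS2. A CTCF site of each locus was captured in the same libraries, at -13.5 kb from R2 and at -54.4 kb from HS2 in coordinates, which is away from the genes at R2 and toward them at HS2. Contacts within 2 kb of these sites were left out as an alternative.

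More of the R2 pairs than of the HS2 pairs stayed close to the viewpoint. Both fragments lay within 2 Mb in 18.5%, 15.0% and 25.9% of the R2 pairs, and in 13.1%, 11.1% and 22.1% of the HS2 pairs of replicates 1, 2 and 3. R2 was higher in 3 of 3 replicates, by 4.35 percentage points ± 0.93 (SD, n = 3 pairs), although the ranges of both viewpoints overlapped because replicate 3 was high for both. Of the contacts within 2 Mb, 85.6% ± 2.06 (SD, n = 3) fell within 100 kb of R2, against 80.1% ± 0.74 (SD, n = 3) for HS2. The R2 replicates, at 86.4%, 87.2% and 83.3%, all lay above those of HS2, at 80.6%, 80.5% and 79.3%. Each such value was compared with an exact sign-flip permutation test over the 3 pairs, which cannot give a two-sided p below 0.25 (0.3 after Benjamini-Hochberg adjustment over 6 values). Both shares gave that smallest p.

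With both sides summed, the difference in contact decay between the enhancers depended on the distances fitted. The decay exponent, the slope of log10 contacts per kb on log10 distance from 10 kb to 1 Mb, was -1.52, -1.54 and -1.44 for R2 and -1.51, -1.48 and -1.45 for HS2. Its mean difference was -0.02 ± 0.04 (SD, n = 3 pairs; exact permutation p = 0.5), with R2 steeper in 2 of 3 replicates. From 20 kb to 2 Mb R2 was steeper in 3 of 3, by -0.0681 ± 0.0041 (SD, n = 3 pairs; exact permutation p = 0.25), and per listed fragment also in 3 of 3, by -0.0621 ± 0.0386. The sides taken apart did not show the same slopes. Toward the genes, R2 contacts fell with an exponent of -1.72 ± 0.09 and HS2 contacts with -1.47 ± 0.06. Away from the genes the order was turned, at -1.21 ± 0.02 for R2 and -1.45 ± 0.05 for HS2 (SD, n = 3). Each of these differences had 1 direction in 3 of 3 replicates, at an exact permutation p of 0.25. On the gene side both enhancers had a contact plateau between 20 and 50 kb and a drop beyond 100 kb, which was larger at R2. Between the bands at 50 to 100 kb and 100 to 200 kb, contacts per 1000 and per kb fell from 1.29 to 0.11 at R2. At HS2 they fell from 1.19 to 0.39.

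**Figure D1:**
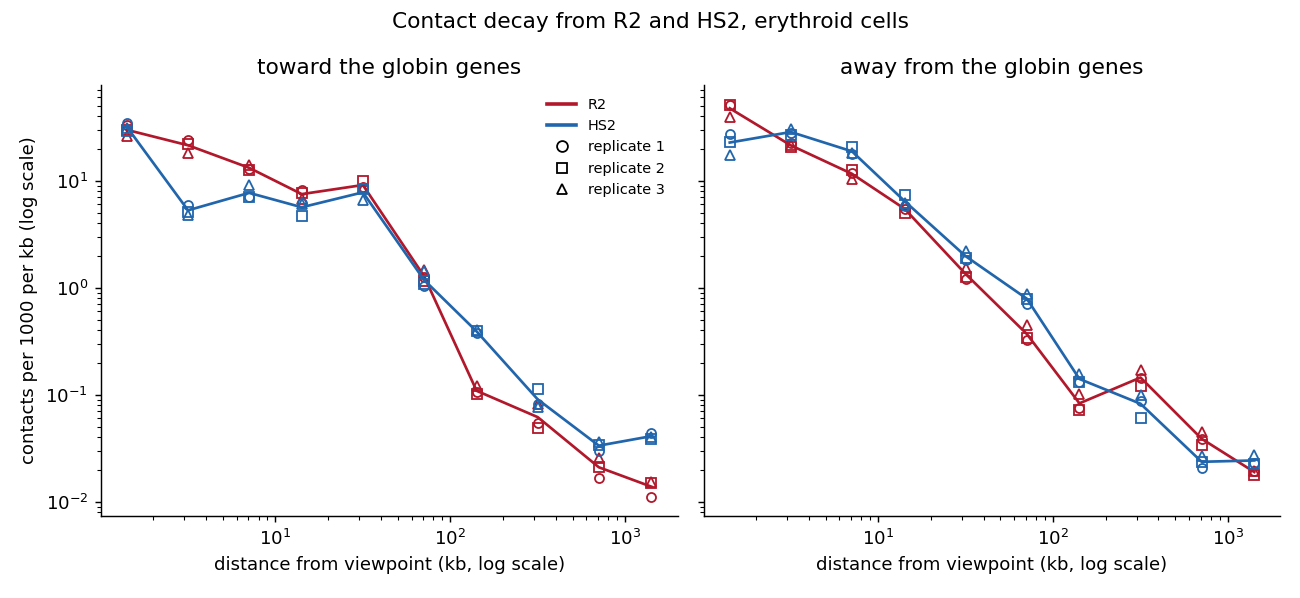
Contacts per 1000 contacts within 2 Mb and per kb (log scale) against distance from the viewpoint in kb (log scale), toward the globin genes and away from them, for R2 and HS2. Symbols are the 3 replicates and lines their means. On the gene side the means at 20 to 50 kb are 9.12 for R2 and 7.79 for HS2, and R2 lies above HS2 at 200 to 500 kb on the away side.

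Distance band by distance band, R2 had more contacts than HS2 close by on the gene side, and fewer beyond 100 kb on that side. Levels are given as contacts per 1000 contacts within 2 Mb of the same viewpoint and replicate. Of 20 bands, 10 on each side, 17 differed between the viewpoints (85%; edgeR quasi-likelihood test with replicate block, adjusted p under 0.05), 6 higher for R2 and 11 lower. At 2 to 5 kb toward the genes R2 had 72.47, 65.9 and 54.5 contacts per 1000, and HS2 17.9, 15.46 and 14.3. All R2 replicates lay above all HS2 replicates, a log2 difference of 2.01 ± 0.11 (SE; edgeR adjusted p = 9.92e-20). HS2 has only 6 listed fragments there and R2 has 15, and per listed fragment the log2 difference was 0.69 (edgeR adjusted p = 2.86e-07). At 100 to 200 kb toward the genes the order was turned, with 10.6, 10.1 and 12.0 contacts per 1000 for R2 and 37.9, 39.3 and 40.0 for HS2. That log2 difference was -1.84 ± 0.12 (SE; edgeR adjusted p = 2.67e-17).

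R2 was also higher at 5 to 10 kb and 10 to 20 kb on the gene side, by 0.79 ± 0.10 and 0.41 ± 0.10 on the log2 scale (SE; edgeR adjusted p = 1e-08 and 0.000373), the latter not called without replicate 2. From 20 to 100 kb, a stretch that includes the adult genes, neither band was called, although bins of 4 kb within it were. The 20 to 50 kb band on the gene side was the fullest of all bands at both loci. It held 263.3, 298.8 and 258.4 contacts per 1000 for R2 and 255.6, 248.4 and 197.1 for HS2. The log2 difference was 0.23 ± 0.13 (SE; edgeR adjusted p = 0.0874), and at 50 to 100 kb it was 0.13 ± 0.10 (SE; edgeR adjusted p = 0.24). Per listed fragment the 50 to 100 kb difference turned to -0.38 (edgeR adjusted p = 9.12e-04), since R2 has 282 listed fragments there and HS2 has 198.

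On the side away from the genes, HS2 had the higher level from 2 to 200 kb and R2 from 200 kb to 1 Mb. At 5 to 10 kb R2 had 59.5, 62.5 and 52.1 contacts per 1000 and HS2 88.1, 103.7 and 90.4, a log2 difference of -0.70 ± 0.10 (SE; edgeR adjusted p = 1.27e-07). This stretch holds part of the locus control region at the beta locus and part of the window of R1, an enhancer of the same cluster, at the alpha locus. At 200 to 500 kb R2 had 43.4, 36.2 and 50.8 contacts per 1000 and HS2 25.96, 18.4 and 29.9. The replicate ranges did not overlap, and the log2 difference was 0.83 ± 0.11 (SE; edgeR adjusted p = 1e-08). These levels share 1 total, so a rise in some bands lowers others. With TMM factors 8 bands were higher and 7 lower, with DESeq2's size factors 8 and 7, and with all pairs of the table as library size 8 and 6. The away bands at 2 to 5 kb, 10 to 20 kb and 1 to 2 Mb and the gene band at 200 to 500 kb were not called under any of these 3 scalings. The away band at 20 to 50 kb was not called with all pairs of the table as library size. Per listed fragment, the away bands at 2 to 5 kb (-0.05) and 20 to 50 kb (-0.20) were not called (edgeR adjusted p = 0.62 and 0.062).

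The sides of each viewpoint were then compared with each other at matched distance, which needs no scaling between the loci. Of all contacts, 62.5%, 64.1% and 61.4% at R2 and 57.9%, 55.8% and 54.2% at HS2 lay on the gene side. R2 was higher in 3 of 3 replicates, by 6.71 percentage points ± 1.89 (SD, n = 3 pairs; exact permutation p = 0.25). Corrected for listed fragments the shares were 62.5% ± 1.39 and 60.6% ± 1.82 (SD, n = 3), and the difference fell to 1.93 points. Band by band, the sides differed at R2 in 8 of 10 bands (80%; edgeR adjusted p under 0.05), 4 in favour of the gene side and 4 in favour of the away side. They differed at HS2 in 8 of 10 bands as well (80%), 6 in favour of the gene side and 2 in favour of the away side.

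At both enhancers the gene side was most strongly favoured at 20 to 50 kb. In that band 87.8%, 88.7% and 84.9% of the R2 contacts and 82.4%, 81.5% and 74.9% of the HS2 contacts lay on the gene side. As log2 ratios of gene side over away side these were 2.77 ± 0.19 and 1.98 ± 0.19 (SE; edgeR adjusted p = 3.24e-11 and 3.17e-09). The difference between the enhancers, 0.79 ± 0.26 (SE; edgeR adjusted p = 0.00682), was not called without replicate 1 or without replicate 2, and per listed fragment it was -0.03. Nearer the viewpoint the enhancers parted. Contacts of R2 at 2 to 5 kb were 51.9%, 51.8% and 46.0% on the gene side, whereas only 17.6%, 16.1% and 13.4% of the HS2 contacts there were on the gene side. Without fragments within 2.5 kb the R2 ratio there was 0.58 on the log2 scale (edgeR adjusted p = 0.00242), a call for the gene side. The HS2 ratio was -2.44 ± 0.17 on the log2 scale and differed from that of R2 by 2.43 ± 0.23 (SE; edgeR adjusted p = 7.78e-09). At 5 to 10 kb the HS2 ratio was -1.30 ± 0.17 and the difference 1.48 ± 0.24 (SE; edgeR adjusted p = 6.08e-06).

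**Figure D2:**
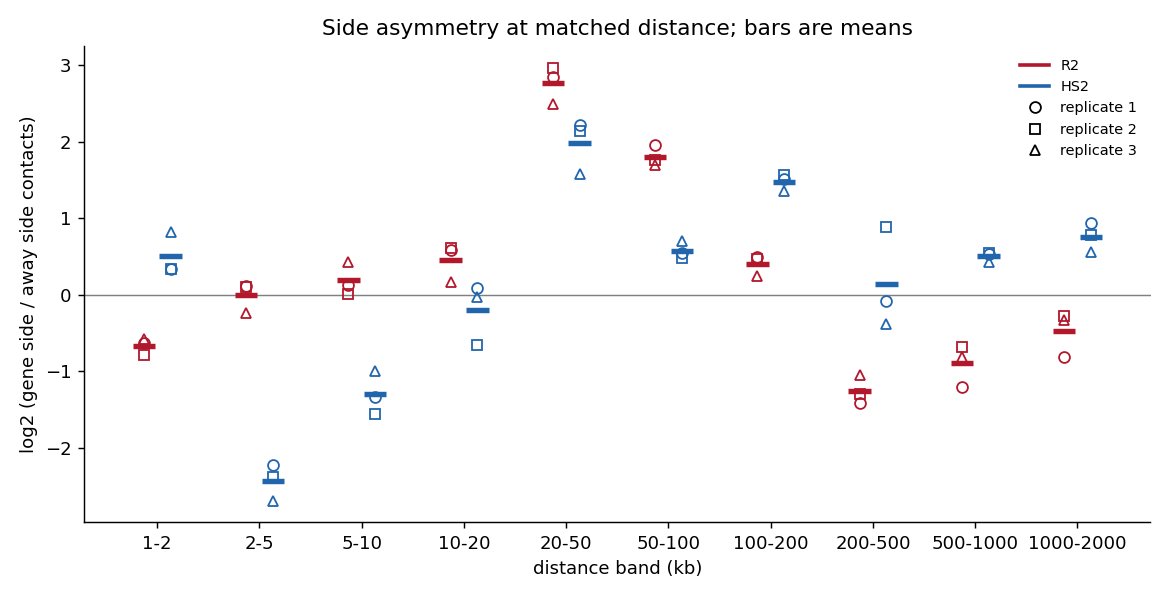
Log2 ratio of gene side to away side contacts in 10 distance bands (kb) for R2 and HS2. Symbols are the 3 replicates, short horizontal bars their means, and 0 marks equal sides. R2 is below 0 and HS2 above 0 at 500 to 1000 kb and 1000 to 2000 kb in every replicate, while both are above 0 at 20 to 200 kb.

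Beyond 500 kb the favoured side was opposite at the alpha and beta loci. At 500 kb to 1 Mb, 30.3%, 38.4% and 36.3% of the R2 contacts lay on the gene side, against 59.1%, 59.4% and 57.4% of the HS2 contacts. At 1 to 2 Mb the shares were 36.4%, 45.3% and 44.3% for R2 and 65.6%, 63.3% and 59.5% for HS2. Every R2 replicate lay below the even share and every HS2 replicate above it in both bands. The log2 ratios differed by -1.40 ± 0.16 and -1.23 ± 0.19 (SE; edgeR adjusted p = 1.39e-07 and 5.27e-06). At 200 to 500 kb R2 favoured the away side, with a log2 ratio of -1.25 ± 0.18 (SE; edgeR adjusted p = 1.61e-06). The HS2 ratio there, 0.14 ± 0.18 (SE; edgeR adjusted p = 0.457), was not called, and its replicates lay on both sides of 0. All 10 bands differed between R2 and HS2 in their side ratio (100%; edgeR adjusted p under 0.05), 5 with R2 more toward the genes, from 2 to 100 kb, and 5 with HS2 more toward the genes, at 1 to 2 kb and from 100 kb outward. Without replicate 1 or without replicate 2 the 10 to 20 kb difference was not called either, and 8 remained. The R2 ratio alone was not called at 10 to 20 kb without any 1 of the replicates, at 100 to 200 kb without replicate 2, and at 1 to 2 Mb without replicate 1.

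Finer profiles showed a pair of peaks in the gene side contacts beyond 20 kb at each locus. Within 100 kb, bins of 4 kb were used. In R2, the bins at 32 to 36 kb (chr11:32183017-32187016) and 44 to 48 kb (chr11:32195017-32199016) held 60.9 ± 4.26 and 53.8 ± 7.22 contacts per 1000 (SD, n = 3). These are where Hba-a1 and Hba-a2, the adult alpha-globin genes, are placed. In HS2, the bins at the same distances (chr7:110973846-110977845 and chr7:110961846-110965845) held 79.9 ± 17.1 and 57.0 ± 8.85 (SD, n = 3), within the stretch of the adult beta-globin genes. At each locus, pairs that join both bins count in both peaks. Whether reads were placed in the right gene copy was not tested. Between the peaks, at 40 to 44 kb, R2 kept 18.1, 21.4 and 13.6 contacts per 1000 and HS2 had 2.35, 3.08 and 1.68. This was one of the widest differences of the profile, 2.92 ± 0.21 on the log2 scale (SE; edgeR adjusted p = 1.37e-23), and 1.80 per listed fragment, of which R2 had 13 and HS2 had 6.

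**Figure D3:**
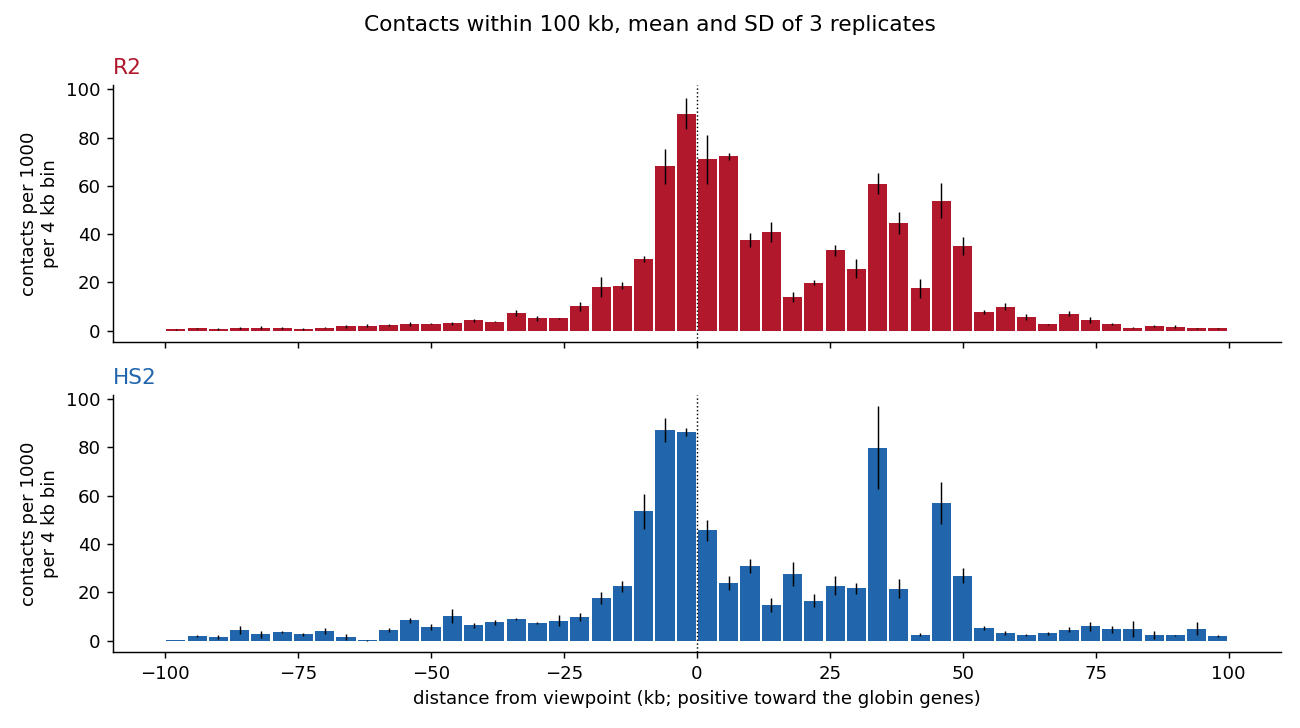
Contacts per 1000 in 4 kb bins from 100 kb away from the genes (negative) to 100 kb toward them (positive), for R2 and HS2. Bars are means of 3 replicates and lines their SD. The gene side peaks at 32 to 36 kb and 44 to 48 kb appear in both profiles, and the 40 to 44 kb bin between them is low for HS2.

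Of 50 bins of 4 kb, 35 differed between the viewpoints (70%; edgeR adjusted p under 0.05), 13 higher for R2 and 22 lower, each with 1 direction in all 3 replicates. Besides 40 to 44 kb, R2 had its largest excess at 60 to 64 kb on the away side, at 56 to 60, 4 to 8 and 12 to 16 kb on the gene side. In the bin that ends 60 kb from the viewpoint on the away side, HS2 was near 0 with 3 listed fragments against 18 for R2, and the log2 difference of 4.36 fell to 1.78 per listed fragment. At 4 to 8 kb, which holds most of the window of the enhancer R3, R2 had 73.3, 70.4 and 72.9 contacts per 1000 and HS2 23.4, 21.4 and 27.1, a log2 difference of 1.60 ± 0.15 (SE; edgeR adjusted p = 1.1e-16). At 12 to 16 kb, which holds the enhancer Rm, the difference was 1.49 ± 0.15 (SE; edgeR adjusted p = 1.21e-15). The excess of 1.70 at 56 to 60 kb fell to 0.35 per listed fragment and was no longer called (edgeR adjusted p = 0.193). The largest deficits of R2 lay at the flanks, at 92 to 96 and 80 to 84 kb on the gene side and at 84 to 88, 72 to 76 and 44 to 48 kb on the away side. They ranged from -2.20 to -1.71 on the log2 scale, with R2 below HS2 in 3 of 3 replicates. All but 56 to 60 kb of these 10 bins kept their call under every alternative. With TMM factors, 16 bins were higher and 13 lower, and per listed fragment 6 were higher and 20 lower, with 19 of the 35 calls kept. Per listed fragment 3 calls turned, at 16 to 20 kb from -0.99 to 0.91, at 48 to 52 kb from 0.39 to -1.23 and at 52 to 56 kb from 0.65 to -0.55. Without replicate 2 only 23 bins were called.

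Levels at known elements showed how the contacts were shared out at each locus. The elements were placed by their usual names in kb from Hba-x, with R2 at -26, and not from an annotation. In 3 kb windows R2 contacted R1 and R3, its neighbours in the enhancer cluster, at 19.3 ± 2.44 and 19.1 ± 1.59 contacts per 1000 per kb (SD, n = 3). Those windows mirror each other around R2, and their log2 ratio was 0.01 ± 0.11 (SD, n = 3). Rm had 9.24 ± 1.12 and R4 had 2.69 ± 0.42 per kb, so R4 had the lowest level of the enhancer windows. These levels are not corrected for listed fragments. The 4 kb bin that holds the R4 window has only 7 of them, against 20 in the bin that holds the Rm window. Hba-a1 had 16.2 ± 1.87 and Hba-a2 15.505 ± 1.82 per kb, a little below R1 and R3 although they lie farther from R2. The promoters of Hba-a1 and Hba-a2 are identical over the aligned bases, and whether reads were placed in the right copy was not tested. Their levels may thus not be separate measures. The mirror windows away from the genes had 1.69 ± 0.36 and 0.73 ± 0.20. The embryonic gene Hba-x, which encodes zeta-globin, lay between, at 8.06 ± 0.27 per kb. The CTCF windows on the gene side were lower, at 2.08 ± 0.34 per kb for +44 and 1.24 ± 0.36 for +48.

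At the beta locus, contacts were averaged over ranges of 7 to 26 kb, which lie at different distances from HS2. The stretch from 1 to 25 kb on the away side held 267.6, 292.1 and 275.7 contacts per 1000, or 11.6 ± 0.52 per kb (SD, n = 3), 0.79 ± 0.21 above its mirror on the log2 scale. The gene side of the control region, 1 to 8 kb from HS2, had 9.93 ± 0.74 per kb, below the 24.8 ± 0.48 of its mirror range by -1.32 ± 0.14 on the log2 scale (SD, n = 3). The adult genes, in a range 26 to 52 kb from HS2, took 242.6, 243.3 and 185.5 contacts per 1000, or 8.61 ± 1.27 per kb. Replicate 3 was the lowest, and the mirror range had 1.94 ± 0.19 per kb, a log2 ratio of 2.14 ± 0.36 (SD, n = 3). The embryonic genes in between had 5.43 ± 0.67 per kb, close to the 5.92 ± 0.52 of their mirror range. At R2 the embryonic gene window stood well above its mirror, by 3.17 ± 0.38 on the log2 scale, and at HS2 the embryonic range did not, at -0.13 ± 0.30 (SD, n = 3). The mirrors also differ. That of the embryonic range lies mostly inside the control region on the away side of HS2. The mirror of the Hba-x window holds none of the enhancer windows and had 0.91 ± 0.22 per kb (SD, n = 3). These windows differ in length and position between the loci, and no test was made between them.

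Farther out, R2 had a raised stretch on the away side and HS2 a slower fall on the gene side. Bins of 20 kb were used there, and the bins named were chosen after their values were seen. From R2, the bin 400 to 420 kb away from the genes (chr11:31731017-31751016) held 8.82, 7.15 and 11.8 contacts per 1000. The bins on its sides had 4.82 ± 1.93 and 4.48 ± 0.40 (SD, n = 3), and the matching bin of HS2 had 1.16 ± 0.55. From HS2, the bins between 100 and 160 kb toward the genes (chr7:110849846-110909845) had 10.2 ± 0.79, 9.14 ± 2.14 and 10.01 ± 0.65. They lay between 16.2 ± 7.45 at 80 to 100 kb and 5.25 ± 2.26 at 160 to 180 kb, so they were not above both neighbours. The same bins of R2 fell from 3.85 ± 1.23 to 1.65 ± 0.27. Of the gene side contacts of R2, 50% lay within 31.46 kb ± 2.29 and 90% within 86.8 kb ± 26.8 (SD, n = 3), where replicate 3 stood apart at 117.7 kb against 69.5 and 73.3 kb. For HS2 the distances were 35.3 kb ± 1.30 and 549 kb ± 66.0. Away from the genes 90% of the contacts lay within 505 kb ± 18.3 of R2 and 405 kb ± 66.5 of HS2.

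**Figure D4:**
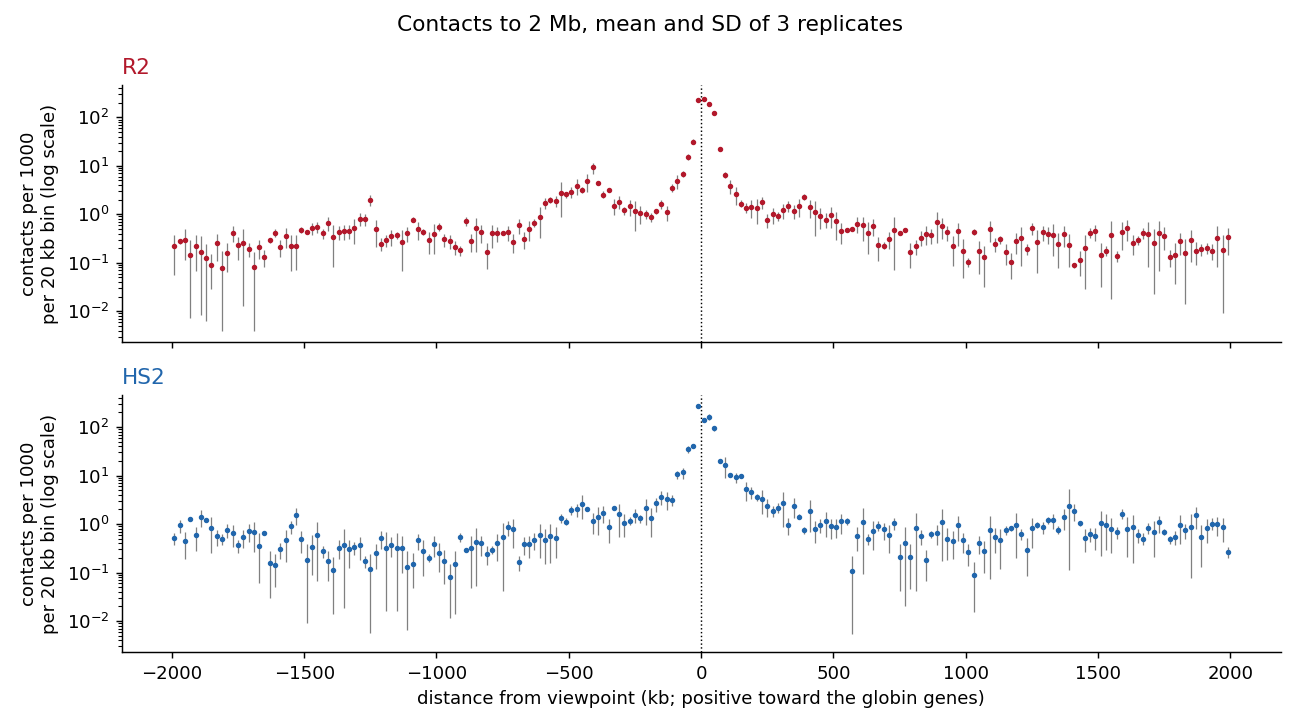
Contacts per 1000 (log scale) in 20 kb bins to 2 Mb on either side of R2 and HS2, with positive distances in kb toward the globin genes. Points are means of 3 replicates and lines their SD, with lower lines drawn short where they would pass 0. The raised stretch of R2 lies around 400 kb on the away side, and HS2 stays near 10 contacts per 1000 from 100 to 160 kb on the gene side.

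Since each read joins the enhancer to a pair of other fragments, the pairs show whether an enhancer contacts both sides at once. Of the pairs with both fragments within 2 Mb, 54.3% ± 0.89 at R2 and 49.6% ± 1.88 at HS2 had both fragments on the gene side. Both lay on the away side in 28.0% ± 2.43 and 37.2% ± 3.05 (SD, n = 3). The fragments lay on opposite sides in 19.3%, 18.4% and 15.2% of the R2 pairs and in 14.3%, 13.9% and 11.6% of the HS2 pairs. R2 had more pairs that span the viewpoint in 3 of 3 replicates, by 4.36 percentage points ± 0.75 (SD, n = 3 pairs; exact permutation p = 0.25). Replicate 3 was the lowest at both viewpoints.

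At both enhancers, pairs that span the viewpoint were rarer than the sides alone would give. If the sides of the fragments were independent, 46.5% ± 0.77 of the R2 pairs and 49.2% ± 0.64 of the HS2 pairs would span it (SD, n = 3). The log2 ratio of the observed to this expected share was -1.27, -1.31 and -1.64 at R2 and -1.76, -1.82 and -2.10 at HS2. The gap between the enhancers was 0.49 ± 0.03 in 3 of 3 replicates (SD, n = 3 pairs; exact permutation p = 0.25). Most of the deficit lay in pairs of fragments close to each other. Directly adjacent fragments made up 33.9% to 41.5% of the R2 pairs and 42.0% to 45.8% of the HS2 pairs. Such neighbours are always same side pairs, because the gap of the viewpoint parts the sides. Of the same side pairs, 75.1% ± 2.45 at R2 and 77.4% ± 2.39 at HS2 were under 10 kb apart, against 10.5% ± 1.49 and 5.90% ± 1.07 of the opposite side pairs (SD, n = 3). Without pairs under 10 kb apart, the log2 ratios were -0.06 ± 0.06 at R2 and -0.20 ± 0.06 at HS2 (SD, n = 3). The gap fell to 0.13 ± 0.01 (SD, n = 3 pairs). Leaving out close pairs takes out mostly same side pairs, so the higher ratios follow in large part from the selection itself.

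A further share of the same side pairs joined the adult gene copies of a locus to each other. Pairs with 1 fragment at 32 to 36 kb and the other at 44 to 48 kb on the gene side numbered 1754, 2022 and 4805 at R2 and 1759, 1628 and 4243 at HS2. They made up 19.9% ± 2.46 of the R2 same side pairs at least 10 kb apart, and 26.7% ± 2.84 of those of HS2 (SD, n = 3). Their fragments lay at a nearly fixed separation. The most frequent fragment pair, with 812 of 8581 at R2 and 1826 of 7630 at HS2, had midpoints 12.82 kb and 14.01 kb apart. Within 0.2 kb of that separation lay 74.3% ± 3.98 and 78.3% ± 4.19 of the pairs (SD, n = 3). In RefSeq's GRCm38.p6 the starts of Hba-a1 and Hba-a2 lie 12.82 kb apart and those of Hbb-bs and Hbb-bt 14.005 kb apart, so corresponding fragments of the copies were the ones paired. The alpha promoters are identical over the aligned bases and the beta promoters only in part, and whether a read placed in both copies came from 1 of them was not tested. With these pairs also left out, the log2 ratio of opposite side pairs was 0.04 ± 0.05 at R2 and -0.05 ± 0.06 at HS2 (SD, n = 3), and the gap was 0.09 ± 0.03 (SD, n = 3 pairs). That selection was made after its values were seen. Every pair joining the copies is a same side pair, so leaving these out raises the ratio by construction.

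**Figure D5:**
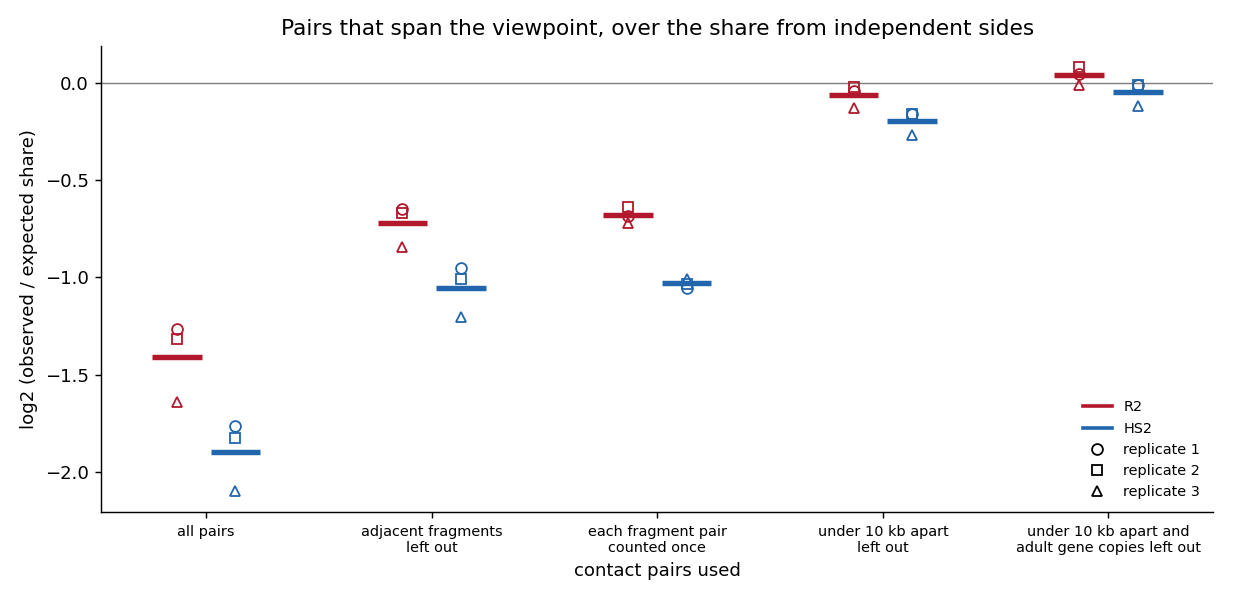
Log2 ratio of the observed to the expected share of pairs that span the viewpoint, for R2 and HS2, with 0 the share from independent sides. Symbols are the 3 replicates and horizontal bars their means, over 5 choices of the pairs used. The ratios rise from -1.41 (R2) and -1.90 (HS2) with all pairs to 0.04 and -0.05 once close pairs and pairs joining the adult gene copies are left out. Those selections take out mostly or only same side pairs, so a rise follows from them by construction.

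Within distance zones the order differed from zone to zone. Zones were near (1 to 20 kb), middle (20 to 100 kb) and far (100 kb to 2 Mb), each on either side. Of 21 zone pairs, 13 took a different share of the pairs at R2 than at HS2 (61.9%; edgeR adjusted p under 0.05), 7 higher at R2 and 6 lower. Of the 9 zone pairs on opposite sides, 4 were higher at R2 and 2 lower, the far gene zone with the near away zone (-1.36 ± 0.24) and with the middle away zone (-1.48 ± 0.18; SE, log2 scale; edgeR adjusted p = 0.00864 and 0.00441). The largest share at both enhancers joined the middle gene zone, which holds the adult genes, with itself, at 27.2% ± 1.32 and 24.4% ± 1.36 (SD, n = 3; edgeR adjusted p = 0.15 for the difference). The near away zone with itself took 15.1% ± 0.46 at R2 and 21.4% ± 1.64 at HS2, a log2 difference of -0.50 ± 0.07 (SE; edgeR adjusted p = 0.00614). It was not called without replicate 2, without replicate 3 or with all table pairs as library size. The far gene zone with itself took 3.55% ± 0.83 at R2 and 9.63% ± 0.23 at HS2, and the middle away zone with itself 3.63% ± 0.86 and 7.60% ± 1.08 (SD, n = 3). These differences, -1.46 ± 0.15 and -1.08 ± 0.09 on the log2 scale (SE; edgeR adjusted p = 0.00331 for both), were called under every alternative. Without replicate 3 the number of zone pairs called was 8. With all table pairs as library size 11 were higher and 4 lower.

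Set against independent zones, most pairs that join different zones were less depleted at R2. Of the 21 zone pairs 17 differed between the enhancers in their ratio to the expected count (81%; edgeR adjusted p under 0.05), 13 higher at R2 and 4 lower. With each fragment pair counted once, 13 were called, 8 higher and 5 lower, and 12 of the 17 kept their call. Under every alternative 6 of the 13 higher and 2 of the 4 lower calls held. Every zone paired with itself was above its expected count at both enhancers, from 1.13 to 3.85 at R2 and from 1.42 to 3.54 at HS2 on the log2 scale, and every pair of different zones was below it. The middle gene zone with the near away zone was at -1.31 ± 0.27 at R2 and -1.87 ± 0.30 at HS2 (SD, n = 3). That difference was 0.55 ± 0.11 (SE; edgeR adjusted p = 4.23e-05), and was not called when each fragment pair was counted once. These zones hold more than adult genes and enhancers. Of the 12502 R2 pairs that join them, 596 joined the R1 window to Hba-a1 and 530 joined it to Hba-a2. The near gene zone with itself was less enriched at R2, 1.65 ± 0.15 against 2.38 ± 0.09 (SD, n = 3), a difference of -0.73 ± 0.10 (SE; edgeR adjusted p = 3.33e-08). Within a combination of zones, once pairs under 10 kb apart were left out, near with near pairs spanned the viewpoint more often than independent sides give, by 0.56 ± 0.02 at R2 and 0.64 ± 0.11 at HS2 on the log2 scale (SD, n = 3). Near with middle pairs were close to the expected share, at -0.05 ± 0.02 and -0.07 ± 0.05. Middle with middle pairs, which include those joining the adult gene copies, stood at -0.25 ± 0.12 and -0.69 ± 0.05 (SD, n = 3). Leaving out close pairs removes same side pairs from the near zone by its construction.

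Pairs that join an adult gene to an enhancer on the other side of the viewpoint were found at both loci. Among R2 pairs at least 10 kb apart, R1 with Hba-a1 made up 8.30 ± 1.15 of 1000 pairs and R1 with Hba-a2 7.88 ± 2.61 (SD, n = 3). R3 with Hba-a1 made up 5.05 ± 1.88 and R3 with Hba-a2 4.39 ± 1.17. Against independent windows these were -0.18 ± 0.12 and -0.31 ± 0.31 for R1, and -0.33 ± 0.70 and -0.49 ± 0.49 for R3 on the log2 scale. Pairs joining Hba-a1 to Hba-a2, 111.0 ± 17.5 of 1000 (SD, n = 3), count in the expected share of both gene windows. They raise the expected values with R1 and R3, and ratios without them were not computed. R1 with R3 reached 0.30 ± 0.01 from 89, 82 and 156 pairs, without those under 10 kb apart, since the centres of both windows are 10 kb apart. R1 was also above independent windows with Rm (0.95 ± 0.46), R4 (0.84 ± 0.61), Hba-x (0.94 ± 0.62) and CTCF +48 (1.18 ± 0.06; SD, n = 3). The last rested on 19, 19 and 40 pairs, and R1 with CTCF +44, its neighbour window, stood at -0.25 ± 0.60. Values above independent windows were not particular to R1. R3 with R4 stood at 1.15 ± 0.55 and Rm with Hba-x at 1.01 ± 0.54, but R3 with Rm at -0.50 ± 1.04. Across the viewpoint, the CTCF window on the away side stood at 1.40 ± 0.29 with CTCF +44 and -1.01 ± 0.38 with Hba-a1 (SD, n = 3). At HS2, the adult genes with the control region on the away side made up 105.2 ± 21.1 of 1000 pairs, and with the control region on the gene side 47.48 ± 9.20. Against independent windows they stood at -0.07 ± 0.18 and 0.26 ± 0.10. The expected share of the adult genes here also includes pairs joining the gene copies to each other. The control region range is longer on the away side, at 24 kb against 7 kb. No test was made between the loci or between these windows.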

How the data were processed

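The authors deposited, for each viewpoint, a table of raw counts per pair of NlaIII fragments in each library, in mm9. Per the submitters' processing notes, Trim Galore and Bowtie were used, with versions, settings and duplicate removal not given in the sources used here. Technical replicates were summed. Each pair added 1 contact to the band, bin or zone of each of its fragments, and features with under 50 counts were left out. Counts were fitted with edgeR 4.0.16 (R 4.3.3; quasi-likelihood, Benjamini-Hochberg, replicate as block, library size from contacts or pairs within 2 Mb), with DESeq2 1.42.0 as an alternative, and SE is the log2 difference divided by the square root of F. Fits were tested on simulated data. Single values used exact permutation (scipy 1.17.1). Pairing comes from the shared libraries. Over 50 bins, deviations of same-numbered replicates correlated at 0.05, -0.02 and 0.31. Windows, bins and lists were chosen with earlier results of these data known. Named bins were the 5 largest called differences per direction with all 3 replicate pairs one way. Alternatives changed the scaling, the block, the near limit, the minimum count and the pairs, fragments or replicates used. ES cell libraries and the CTCF viewpoints were not analysed here. Counts per distinct fragment pair averaged 5.01 (R2) and 7.24 (HS2), and counts are not independent molecules.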

Additional observations from a re-analysis of the deposited data

Results flagged for a closer look

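One library of 10 stood apart in 1 measure. In technical replicate 1 of biological replicate 3, 77.06% of the HS2 contacts within 2 Mb lay within 100 kb, the lowest of a range to 81.6% with a median of 79.7%. Chance gives such a flag in about 1 of 20 groups, and 12 groups (6 measures at each viewpoint) were looked at. Without the first technical replicates the difference between R2 and HS2 in this share kept its direction.

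The log2 ratio of gene side to away side differed between R2 and HS2, by the test of the difference itself, in each of the 10 distance bands. R2 minus HS2 was -1.169 at 1 to 2 kb, 2.429 at 2 to 5 kb, 1.484 at 5 to 10 kb, 0.6501 at 10 to 20 kb, 0.7895 at 20 to 50 kb and 1.23 at 50 to 100 kb. It was -1.078 at 100 to 200 kb, -1.387 at 200 to 500 kb, -1.399 at 500 kb to 1 Mb and -1.225 at 1 to 2 Mb (edgeR quasi-likelihood test, adjusted p from 7.78e-09 to 0.0149).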

How the results depend on the processing

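Of the differences between R2 and HS2 past the threshold, 5 of 6 higher and 6 of 11 lower bands, 4 of 13 higher and 8 of 22 lower bins, and 3 of 7 higher and 3 of 6 lower zone pairs kept their call under every alternative run for them. Leaving out 1 replicate gave 13 to 16 bands, 6 to 7 side ratios at R2, 8 to 8 at HS2, 8 to 10 differences of side ratios, 23 to 28 bins, 8 to 9 zone pairs and 14 to 15 zone pairs against expected. The single differences then ranged from 3.82 to 4.65 points for pairs within 2 Mb, 4.92 to 6.25 for contacts within 100 kb, 5.91 to 7.76 for the gene side share and 4.01 to 4.75 for opposite side pairs. They ranged from -0.0398 to -0.00161 for the decay exponent and from 0.477 to 0.503 for the log2 ratio of opposite side pairs. Without the pairing (no replicate block), 15 of 17 bands, 32 of 35 bins, 12 of 13 zone pairs and 15 of 17 zone pairs against expected kept their call, and no side ratio lost it. Without the first technical replicates 30 bins were called.

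With each fragment pair counted once, the differences were 3.19 points within 2 Mb, 7.04 within 100 kb, 4.78 for the gene side, 5.72 for opposite side pairs and 0.349 for their log2 ratio. With fragments within 2.5 kb left out they were 2.65 within 2 Mb, 9.78 for the gene side and 3.06 for opposite side pairs. Per listed fragment the gene side difference was 1.93 and that of the decay exponent -0.0621, and the exponent from 20 kb to 2 Mb differed by -0.0681. The log2 ratio of opposite side pairs differed by 0.622 within 100 kb, by 0.333 without adjacent fragments, by 0.517 without the other captured viewpoint and by 0.460 without pairs joining the gene copies. It differed by 0.134 without pairs under 10 kb apart and by 0.0863 with both left out, where the share differed by 2.504 points. The alternatives on adjacent fragments and on pairs joining the copies were chosen after seeing the data, and both take out only same side pairs.

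The direction turned in the cases below and in 3 bins that were called again per listed fragment, and the cause was not tested. Bins that lost their call per listed fragment are not counted here, whatever their direction. Per listed fragment, the gene band at 50 to 100 kb turned to -0.38 and the side difference at 20 to 50 kb to -0.0325. The away band at 10 to 20 kb turned to 0.0211 with DESeq2 and to 0.10 with the table total. The R2 side ratio at 2 to 5 kb turned to 0.58 without fragments within 2.5 kb, and the near away zone with itself, against expected, to -0.42 with each fragment pair counted once. With DESeq2's size factors 17 bins were higher and 14 lower, and with the table total 16 and 12. The median log2 difference of the bands was -0.30, and 0.04 with the table total.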

Other observations

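About the same share of pairs lay outside the enhancer's chromosome at both loci. Neither fragment was on it in 51.3%, 56.4% and 42.2% of the R2 pairs and in 54.9%, 58.0% and 40.2% of the HS2 pairs of replicates 1, 2 and 3. Replicate 3 was the lowest at both.

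Some far bins rested on 1 replicate. The bin 1380 to 1400 kb from HS2 toward the genes held 5.67 contacts per 1000 in replicate 1, and 0.36 and 0.89 in replicates 2 and 3. The bin 1240 to 1260 kb from R2 on the away side (chr11:30891017-30911016) held 2.57, 1.55 and 1.92 contacts per 1000, above its neighbours at 0.80 ± 0.23 and 0.49 ± 0.28 (SD, n = 3). Both were chosen after their values were seen.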
